A study of Mus musculus with 6 samples.

Results

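The interferon-stimulated antiviral genes are 42 genes, taken by symbol from a list of known interferon targets, among 52550 genes in the deposited table. They were chosen with earlier results of these data known, so their shares are not independent of these data. No symbol occurred more than once, and all 42 passed the filter on low counts that left 17863 genes for the test. They were read in bone marrow-derived macrophages of C57BL/6 mice, grown for 7 days in medium with 25 ng/ml of macrophage colony-stimulating factor (M-CSF), the growth factor that turns marrow progenitors into macrophages. The macrophages then received conditioned medium of apoptotic chondrocytes (AC CM, 3 samples) or of normal chondrocytes (C CM, 3 samples), chondrocytes being the cells of cartilage. Both groups therefore share the strain, the M-CSF culture and an exposure to chondrocyte medium, and no macrophages without such medium were analysed here. The comparison asks how dying cartilage cells, through what they release, change macrophage expression.

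Type I interferons bind a receptor of the IFNAR1 and IFNAR2 chains, whose kinases TYK2 and JAK1 phosphorylate STAT proteins, STAT2 among them. With IRF9 these form a complex that binds the interferon-stimulated response element (ISRE) in promoters and switches on antiviral genes. Their products sense viral nucleic acid, degrade or edit RNA, starve viruses of nucleotides, hold virions at the membrane or tag proteins with the ubiquitin-like ISG15, and macrophages keep a basal level of many of them without infection.

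Gene counts summed to between 65630784 and 80105872 per library, and each member had at least 522 counts in every library. Whether the samples of a group are separate mice or separate dishes is not in the labels. The p-values below then rest on a spread that may be technical only. Values per sample are always given in the order of replicates 1, 2 and 3. Genes that mark macrophages were high, as the label says: Lyz2, Csf1r, Adgre1 and Cd68 averaged 10838, 2021, 1967 and 1319 CPM after AC CM, against 11435, 3317, 2248 and 1189 CPM after C CM (CPM, counts scaled to a common library size). AC CM replicates 2 and 3 stood apart in transcripts of hepatocytes. The 8 listed genes of this kind summed to 46.5, 567 and 1299.9 CPM after AC CM, against 42.2, 1.62 and 0.478 CPM after C CM. Called members and the called pathway genes named below are therefore also described without both libraries. That fit keeps AC CM replicate 1 and C CM replicate 1, which also held more of these transcripts than C CM replicates 2 and 3. It is therefore not free of them.

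Most of the antiviral genes did not pass the test, a minority were modestly lower after AC CM, Ifit2, Ifitm2, Isg20, Bst2 and Samhd1 among them, and Xaf1, Ifi35 and Eif2ak2 were higher. After AC CM, 13 of the 42 members (31.0%) were lower, 3 (7.14%) were higher and 26 did not pass an adjusted p of 0.05. The test was edgeR's quasi-likelihood test with Benjamini-Hochberg adjustment over all 17863 genes, which gave each adjusted p below unless another source is named. Over all genes tested, 13.3% were called lower and 13.3% higher, so that 38.1% of the members against 26.5% of all genes were called in either direction. Members are better expressed than many of the genes tested. A fit limited to genes with at least 1 CPM in 3 samples called 33.7% of them in either direction, and again 3 members higher and 13 lower. The members' median log2 fold change, AC CM over C CM, was -0.13, beside -0.0046 for all genes, and 30 members had a negative and 12 a positive value. The changes were small: Xaf1 alone (2.38% of the members, against 6.24% of all genes) was called with a change of at least 2-fold. For 22 of the 26 members that did not pass, the 95% interval of the fold change lay within 1.5-fold in either direction, and for Ifi47, Tor3a, Oas2 and Oasl1 it reached further. The CPM of the groups did not overlap for 19 members (45.2%, against 44.7% of all genes tested), with AC CM below for 15 (35.7%, against 22.1%) and above for 4 (9.52%, against 22.6%). In bulk RNA, fewer cells of a type and less RNA per cell cannot be told apart.

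**Figure D1:**
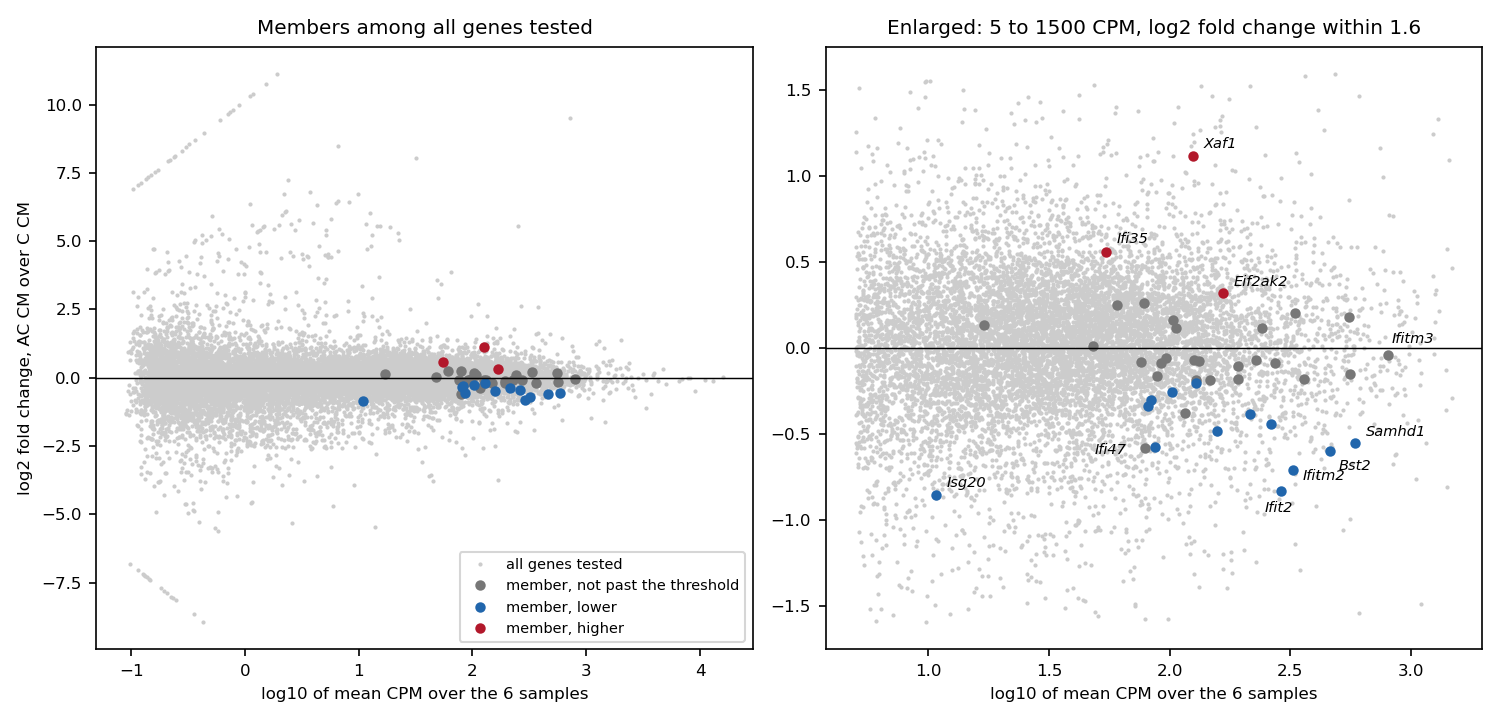
Log2 fold change (AC CM over C CM) against the log10 of the mean CPM over the 6 samples for the 17863 genes tested (small dots) and the 42 members (large dots, coloured by their call); the right panel enlarges the range of the members. Members sit among well-expressed genes, with Xaf1 at 1.11 the highest and Isg20 at -0.85 the lowest.

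Per kilobase of exon, the members spanned a wide range of levels. Ifitm3, which blocks viral fusion in endosomes, led with a mean of 1162 CPM per kb after AC CM and 1198 CPM per kb after C CM. Bst2 averaged 407 and Ifitm2 374 CPM per kb after AC CM, against 617 and 612 CPM per kb after C CM, and Ifi204, Ifit3, Isg15 and Oas1a followed between 127 and 165 CPM per kb after AC CM and between 123 and 173 CPM per kb after C CM. At the low end stood Herc6, with 7.93 CPM per kb after AC CM and 8.38 after C CM, Isg20, with 4.13 after AC CM and 7.48 after C CM, and Mx2, with 4.95 after AC CM and 4.51 after C CM.

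Promoter windows of RefSeq (GRCm38.p6, 250 bases before to 50 bases after a gene start) were found for 31 of the 42 members, 38 windows in all. The ISRE core, searched on both strands as GAAA followed after any 2 bases by GAAA, stood in the windows of 16 of these 31 genes (51.6%), against 3.99% of all 27025 genes with a window and 3.98% of those tested here. A narrower form in which the first of these bases is C, every match of which is also a match of the wider form, stood in 10 of 31 (32.3%), against 0.792% of all genes. TTCNNNGAA, the core bound by STAT dimers, stood in 9 of 31 (29.0%), against 9.55%. Among members with a window, the ISRE core stood in 6 of the 14 that were called (42.9%) and in 10 of the 17 that were not (58.8%), and TTCNNNGAA in 6 of 14 (42.9%) and 3 of 17 (17.6%). A match is a description of the letters and not a site of binding, which was not measured.

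The windows below belong to called members that hold the ISRE core, 5 that fell and Eif2ak2, which rose. They show how its number, strand and place differ between these genes. Each is written 5′ to 3′ on the strand of the gene, with the core in capitals, which starts with TTTC where it lies on the other strand.
Ifitm2 promoter, chr7:140955912-140956211, minus strand: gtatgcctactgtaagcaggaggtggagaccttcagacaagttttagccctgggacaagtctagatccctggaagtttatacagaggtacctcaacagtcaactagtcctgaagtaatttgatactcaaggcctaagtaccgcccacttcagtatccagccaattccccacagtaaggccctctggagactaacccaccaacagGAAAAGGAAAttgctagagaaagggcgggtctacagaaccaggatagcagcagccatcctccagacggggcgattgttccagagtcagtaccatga
Ifit3 promoter, chr19:34583279-34583578, plus strand: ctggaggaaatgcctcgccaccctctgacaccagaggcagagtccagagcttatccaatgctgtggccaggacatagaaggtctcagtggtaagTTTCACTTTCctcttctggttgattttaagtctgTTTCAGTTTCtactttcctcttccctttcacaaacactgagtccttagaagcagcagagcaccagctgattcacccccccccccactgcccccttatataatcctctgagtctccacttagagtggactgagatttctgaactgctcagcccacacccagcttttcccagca
Ifit3b promoter, chr19:34607707-34608006, plus strand: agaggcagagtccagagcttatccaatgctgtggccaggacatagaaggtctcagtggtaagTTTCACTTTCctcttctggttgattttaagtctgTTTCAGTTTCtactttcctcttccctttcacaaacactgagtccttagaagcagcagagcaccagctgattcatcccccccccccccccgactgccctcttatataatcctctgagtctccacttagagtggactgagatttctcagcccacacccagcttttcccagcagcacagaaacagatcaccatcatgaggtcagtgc
Bst2 promoter, chr8:71537423-71537722, minus strand: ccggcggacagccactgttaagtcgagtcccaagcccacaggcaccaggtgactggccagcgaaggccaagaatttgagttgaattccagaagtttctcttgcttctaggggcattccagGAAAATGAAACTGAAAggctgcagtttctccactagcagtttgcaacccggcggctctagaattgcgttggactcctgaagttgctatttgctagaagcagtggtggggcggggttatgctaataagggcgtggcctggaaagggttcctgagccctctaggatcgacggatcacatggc
Rsad2 promoter, chr12:26456403-26456702, minus strand: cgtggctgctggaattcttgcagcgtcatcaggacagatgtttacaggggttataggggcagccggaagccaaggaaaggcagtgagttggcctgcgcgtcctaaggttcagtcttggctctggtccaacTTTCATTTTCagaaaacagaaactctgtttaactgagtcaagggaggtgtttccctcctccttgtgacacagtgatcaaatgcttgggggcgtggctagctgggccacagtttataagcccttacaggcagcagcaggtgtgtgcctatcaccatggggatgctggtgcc
Eif2ak2 promoter, chr17:78882523-78882822, minus strand: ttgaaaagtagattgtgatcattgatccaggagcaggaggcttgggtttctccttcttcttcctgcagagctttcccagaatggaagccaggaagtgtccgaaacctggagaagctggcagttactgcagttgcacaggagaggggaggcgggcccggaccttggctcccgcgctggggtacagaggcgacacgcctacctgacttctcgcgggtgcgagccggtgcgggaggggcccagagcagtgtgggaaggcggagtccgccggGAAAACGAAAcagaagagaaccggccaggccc

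In the Bst2 window 2 overlapping cores share a GAAA, starting 130 and 124 bases before the gene start, in Ifitm2 the core starts 46 bases before it, and in Eif2ak2 it starts 19 bases after it. Ifit3 and Ifit3b carry 2 cores each on the other strand, in an identical run of 169 bases. Isg15, which did not pass the test, has 3 cores.

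Xaf1, the member that rose most, held no such core but a form with a spacing of 1 base, GAAANGAAA (capitals in its window). This motif was added after the windows were read, and stood in 11 of 31 members (35.5%), against 3.7% of all genes with a window. It stood in 3 of the 14 called members with a window (21.4%) and in 8 of the 17 not called (47.1%). The called ones were Xaf1, Ifi35 and Ifi44, of which Ifi44 fell.
Xaf1 promoter, chr11:72301379-72301678, plus strand: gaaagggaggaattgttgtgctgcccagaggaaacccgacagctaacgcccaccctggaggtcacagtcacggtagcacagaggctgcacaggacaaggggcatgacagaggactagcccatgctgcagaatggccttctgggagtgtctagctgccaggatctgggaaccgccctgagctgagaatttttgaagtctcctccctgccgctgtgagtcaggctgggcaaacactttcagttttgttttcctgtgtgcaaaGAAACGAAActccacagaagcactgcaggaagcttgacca

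Xaf1 encodes a protein that binds the apoptosis inhibitor XIAP and lowers the threshold of cell death. It was 2.17-fold higher after AC CM (172 ± 6.49 CPM after AC CM, against 79.3 ± 7.05 CPM after C CM; SD, n = 3 each). Xaf1 had 12200, 12730 and 14137 counts after AC CM, against 4920, 5157 and 5857 after C CM. Every AC CM sample was above every C CM sample by a wide margin, and the change (log2 fold change 1.11, SE 0.08, adjusted p = 2.59e-05) was called in each of the 16 alternative settings tried. The gene (ENSMUSG00000040483.15) lies at chr11:72301629-72313733, plus strand of GRCm38. Ifi35, an induced protein with a leucine zipper that pairs with NMI, rose 1.47-fold (65.1 ± 5.96 CPM after AC CM, against 44.2 ± 2.20 CPM after C CM). Its counts were 4679, 4532 and 5605 after AC CM, against 3058, 2899 and 2916 after C CM (log2 fold change 0.56, SE 0.09, adjusted p = 0.00177). It lies at chr11:101448407-101458698, plus strand. The groups did not overlap, and Ifi35 was called without any single replicate. Without both AC CM libraries 2 and 3, Ifi35 was at a log2 fold change of 0.58 and just missed the threshold (adjusted p = 0.0503).

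Stat2, the only gene of the signalling core among the members, and the 3 members of the ISG15 system did not pass the test. Other receptor and transducer genes, some of which were called, are described further below. Stat2, a transducer of the interferon receptor, averaged 186 ± 12 CPM after AC CM, against 199.6 ± 8.42 CPM after C CM, with overlapping groups (log2 fold change -0.11, SE 0.07, adjusted p = 0.309; 95% interval -0.26 to 0.05). Isg15 itself averaged 109 ± 9.08 CPM after AC CM, against 97.7 ± 9.65 CPM after C CM (log2 fold change 0.16, SE 0.09, adjusted p = 0.241; 95% interval -0.05 to 0.37). Usp18 is the protease that removes ISG15 and restrains the receptor at IFNAR2. Its counts were 4863, 4726 and 5315 after AC CM, against 3816, 3318 and 3938 after C CM. Its AC CM samples were all above its C CM samples in CPM, yet the difference missed the threshold (log2 fold change 0.25, SE 0.09, adjusted p = 0.0821). Herc6, the main ligase that attaches ISG15 in mice, had overlapping groups and a log2 fold change of -0.08 (95% interval -0.26 to 0.10).

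Among 6 sensors of nucleic acid, Eif2ak2 rose, Zbp1 fell and 4 did not pass. Eif2ak2 encodes PKR, the kinase that halts translation on double-stranded RNA, and had 13714, 14352 and 13973 counts after AC CM, against 8538, 10112 and 11132 after C CM. It was 1.25-fold higher (185 ± 9.70 CPM after AC CM, against 148 ± 18 CPM after C CM; log2 fold change 0.32, SE 0.09, adjusted p = 0.0312). The gene lies at chr17:78852564-78882573, minus strand. Its lowest AC CM sample (175 CPM) lay just above its highest C CM sample (166 CPM). That call was lost without AC CM replicate 1, 2 or 3 or C CM replicate 2 (adjusted p = 0.115, 0.0924, 0.0558 and 0.0833). Zbp1, which binds Z-form nucleic acid and triggers necroptosis, had 6160, 7403 and 7705 counts after AC CM, against 7862, 6966 and 7542 after C CM. The AC CM libraries hold more reads, so counts can overlap where CPM do not: in CPM, Zbp1 was lower in every AC CM sample (93.3 ± 5.07 CPM after AC CM, against 111 ± 9.09 CPM after C CM; log2 fold change -0.26, SE 0.08, adjusted p = 0.0426). It lies at chr2:173206612-173218923, minus strand. The Zbp1 call was lost without AC CM replicate 1, 2 or 3 or C CM replicate 1 or 3 (adjusted p = 0.158, 0.103, 0.0986, 0.0636 and 0.101). Neither was called with both libraries 2 and 3 of AC CM absent, Eif2ak2 at 0.39 (adjusted p = 0.194) and Zbp1 at -0.36 (adjusted p = 0.231).

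The RIG-I-like receptors, cytosolic sensors of viral RNA, did not pass the test. Log2 fold changes were -0.18 for Ddx58 (RIG-I; 95% interval -0.37 to 0.01), -0.07 for Ifih1 (MDA5; -0.23 to 0.08) and -0.07 for Dhx58 (LGP2, a regulator of both; -0.24 to 0.10). Ifi204, a DNA sensor of the HIN family, had 42482, 43467 and 47703 counts after AC CM, against 29098, 36795 and 38425 after C CM. Its groups overlapped in CPM and it did not pass (log2 fold change 0.18, SE 0.09, adjusted p = 0.189). Where its coding sequence aligns with that of Ifi211 without a gap, 96.6% of bases are identical, and over all columns of the alignment 66.3%. Of its stretches of 50 bases, 22.9% also occur in Ifi211, so its counts are uncertain.

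None of the 6 members of the OAS family, the synthetases whose oligoadenylates switch on RNase L and their relatives, passed the test, and 3 had positive and 3 negative log2 fold changes, of which those of Oasl1 and Oas2 changed sign when some replicates were left out. Oas3, the family member with the most counts, had 24643, 24280 and 27538 counts after AC CM, against 27288, 24014 and 25211 after C CM. In CPM all AC CM samples were below all C CM samples, with a difference short of the threshold (log2 fold change -0.18, SE 0.08, adjusted p = 0.128). Oas1a and Oas1g had log2 fold changes of 0.11 and 0.11 (95% intervals -0.03 to 0.26 and -0.04 to 0.27). Their coding sequences are 96.7% identical and share 48.3% of stretches of 50 bases, so reads may be split between them. Their CPM summed to 378, 345 and 360.1 after AC CM, against 347, 323 and 330.1 after C CM. Oasl2 had a log2 fold change of -0.07 (95% interval -0.23 to 0.09). Oas2 (-0.19) and Oasl1, which in mice blocks translation of IRF7 (0.01), varied too much between replicates to bound a change below 1.5-fold. Oas2 ranged 1.66-fold within C CM, and Oasl1 1.67-fold within AC CM and 2.04-fold within C CM.

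The IFIT family, proteins that bind foreign RNA and block its translation, was lower as far as its members passed. Of its 4 genes 3 fell, with a median log2 fold change of -0.39. The CPM of all 4 lay below C CM in every AC CM sample. Of all genes tested, 13.3% were called lower and 22.1% did not overlap, with AC CM below. Ifit2 fell most, to 208 ± 15.6 CPM after AC CM, against 370.1 ± 40.7 CPM after C CM. Its libraries held 15203, 14691 and 17389 counts after AC CM, against 21916, 24748 and 27760 after C CM. It was 1.78-fold lower (log2 fold change -0.83, SE 0.09, adjusted p = 0.000286) and was called in each of the 16 alternative settings. The gene lies at chr19:34550694-34576419, plus strand. Ifit3, which stabilizes IFIT1 in complexes with RNA in humans, had 16252, 16205 and 18082 counts after AC CM, against 19249, 19621 and 21845 after C CM. It averaged 222 ± 11.3 CPM after AC CM, against 302 ± 21 CPM after C CM (log2 fold change -0.44, SE 0.07, adjusted p = 0.00227). The gene lies at chr19:34583531-34588731, plus strand, and its groups did not overlap. Ifit3b lies nearby at chr19:34607970-34613401, plus strand. It had 5483, 4989 and 5856 counts after AC CM, against 5886, 5936 and 6473 after C CM. In CPM it too was lower in every AC CM sample (71.9 ± 6.79 CPM after AC CM, against 91.1 ± 5.05 CPM after C CM; log2 fold change -0.34, SE 0.09, adjusted p = 0.0184). Ifit3b was not called without AC CM replicate 2 or 3 or C CM replicate 3 (adjusted p = 0.0749, 0.0612 and 0.0604). With neither AC CM library 2 nor 3 in the fit, Ifit3 had a log2 fold change of -0.39 (adjusted p = 0.146) and Ifit3b one of -0.23 (adjusted p = 0.406), so both calls were lost. The coding sequences of Ifit3 and Ifit3b are 99.1% identical and share 68.5% of stretches of 50 bases, so their split is uncertain. The sum of their CPM was 294 ± 18 after AC CM and 393 ± 26 after C CM (SD, n = 3 each), 1.34-fold lower. Ifit1, which recognizes RNA without a self-type cap, did not pass (log2 fold change -0.16, SE 0.07, adjusted p = 0.137).

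The Mx GTPases, which trap viral ribonucleoproteins, did not pass either. Common laboratory strains, C57BL/6 among them, carry Mx1 and Mx2 alleles that make no working protein, and the annotation lists Mx2 as a polymorphic pseudogene. Mx1 averaged 94.3 ± 7.05 CPM after AC CM, against 98.1 ± 9.49 CPM after C CM (log2 fold change -0.06, 95% interval -0.26 to 0.14), and Mx2 averaged 17.9 ± 0.730 CPM after AC CM, against 16.3 ± 2.21 CPM after C CM (0.13, 95% interval -0.14 to 0.41), with the sign of Mx1 turned when AC CM replicate 2 or C CM replicate 3 was left out.

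Of the 3 genes that act at membranes, Bst2 and Ifitm2 fell while Ifitm3 did not pass. Ifitm2, an endosomal restriction factor, fell 1.63-fold to 245 ± 6.78 CPM after AC CM, against 401 ± 16.9 CPM after C CM. It had 17832, 18710 and 19203 counts after AC CM, against 27129, 27861 and 25572 after C CM. The spread within each group was small beside the gap (log2 fold change -0.71, SE 0.06, adjusted p = 6.86e-05). Ifitm2 lies at chr7:140954837-140955987, minus strand, and its call held in each of the 16 alternative settings. Bst2 encodes tetherin, which holds budding virions on the cell surface, and had 27515, 27131 and 28832 counts after AC CM, against 42657, 35071 and 34084 after C CM. It fell 1.52-fold (368 ± 20.5 CPM after AC CM, against 557 ± 80.8 CPM after C CM; log2 fold change -0.60, SE 0.10, adjusted p = 0.0025). Bst2 lies at chr8:71534255-71537456, minus strand. C CM replicate 1 was above the other C CM samples, and all AC CM samples were below them. Its call was lost when both AC CM libraries 2 and 3 were dropped (log2 fold change -0.52, adjusted p = 0.136). Ifitm3, the member with the most counts, had 57476, 58868 and 62771 counts after AC CM, against 55616, 54873 and 52625 after C CM. Its groups overlapped in CPM (log2 fold change -0.04, SE 0.06, adjusted p = 0.645; 95% interval -0.18 to 0.09). Only 5.22% of the stretches of 50 coding bases of Ifitm2 also occur in Ifitm3, with 80.9% of aligned bases identical.

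The effectors that act on nucleotides and RNA were the group with the most calls: 4 of 5 fell, with a median log2 fold change of -0.48. Among all genes tested, 13.3% were called lower. Samhd1, which breaks down the deoxynucleotides that retroviruses need, had 34188, 36107 and 37738 counts after AC CM, against 43958, 46598 and 49345 after C CM. It averaged 475 ± 9.34 CPM after AC CM, against 696 ± 35.5 CPM after C CM, so that its AC CM samples were all below its C CM samples (log2 fold change -0.55, SE 0.06, adjusted p = 0.000268). Samhd1 lies at chr2:157097533-157135265, minus strand. Isg20, an exonuclease that degrades RNA, was the called member with the fewest counts, 573, 649 and 522 after AC CM, against 1018, 863 and 910 after C CM. It was 1.81-fold lower (7.69 ± 0.998 CPM after AC CM, against 13.9 ± 1.48 CPM after C CM; log2 fold change -0.85, SE 0.14, adjusted p = 0.00246). Isg20 lies at chr7:78913424-78920396, plus strand. Rsad2 (viperin, which makes a chain-terminating nucleotide) had 9870, 9088 and 10757 counts after AC CM, against 10754, 12655 and 13375 after C CM. It was 1.4-fold lower, with no overlap in CPM (131 ± 11.8 CPM after AC CM, against 183 ± 17.9 CPM after C CM; log2 fold change -0.48, SE 0.09, adjusted p = 0.00542). Rsad2 lies at chr12:26442746-26456452, minus strand. Cmpk2, the mitochondrial nucleotide kinase gene near Rsad2, lies at chr12:26469204-26479837, plus strand. It had 5027, 5652 and 6335 counts after AC CM, against 6138, 5947 and 6408 after C CM. In CPM it was lower in every AC CM sample (74.6 ± 4.27 CPM after AC CM, against 92.1 ± 4.56 CPM after C CM; log2 fold change -0.30, SE 0.07, adjusted p = 0.0149). That call was lost without AC CM replicate 1 or 2 (adjusted p = 0.0682 and 0.0688). All 4 calls were lost when AC CM libraries 2 and 3 were dropped together. Log2 fold changes were then -0.52 for Samhd1 (adjusted p = 0.0537), -0.78 for Isg20 (adjusted p = 0.0868), -0.39 for Rsad2 (adjusted p = 0.183) and -0.37 for Cmpk2 (adjusted p = 0.18). Adar, which edits adenosines in double-stranded RNA, had 9010, 12105 and 10232 counts after AC CM, against 8464, 11197 and 11866 after C CM. Its groups overlapped in CPM (log2 fold change -0.19, SE 0.13, adjusted p = 0.318). The Adar gene overlaps Chrnb2 on the opposite strand over 7252 bases, and counts of Chrnb2 came to 10.7% of those of Adar.

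**Figure D2:**
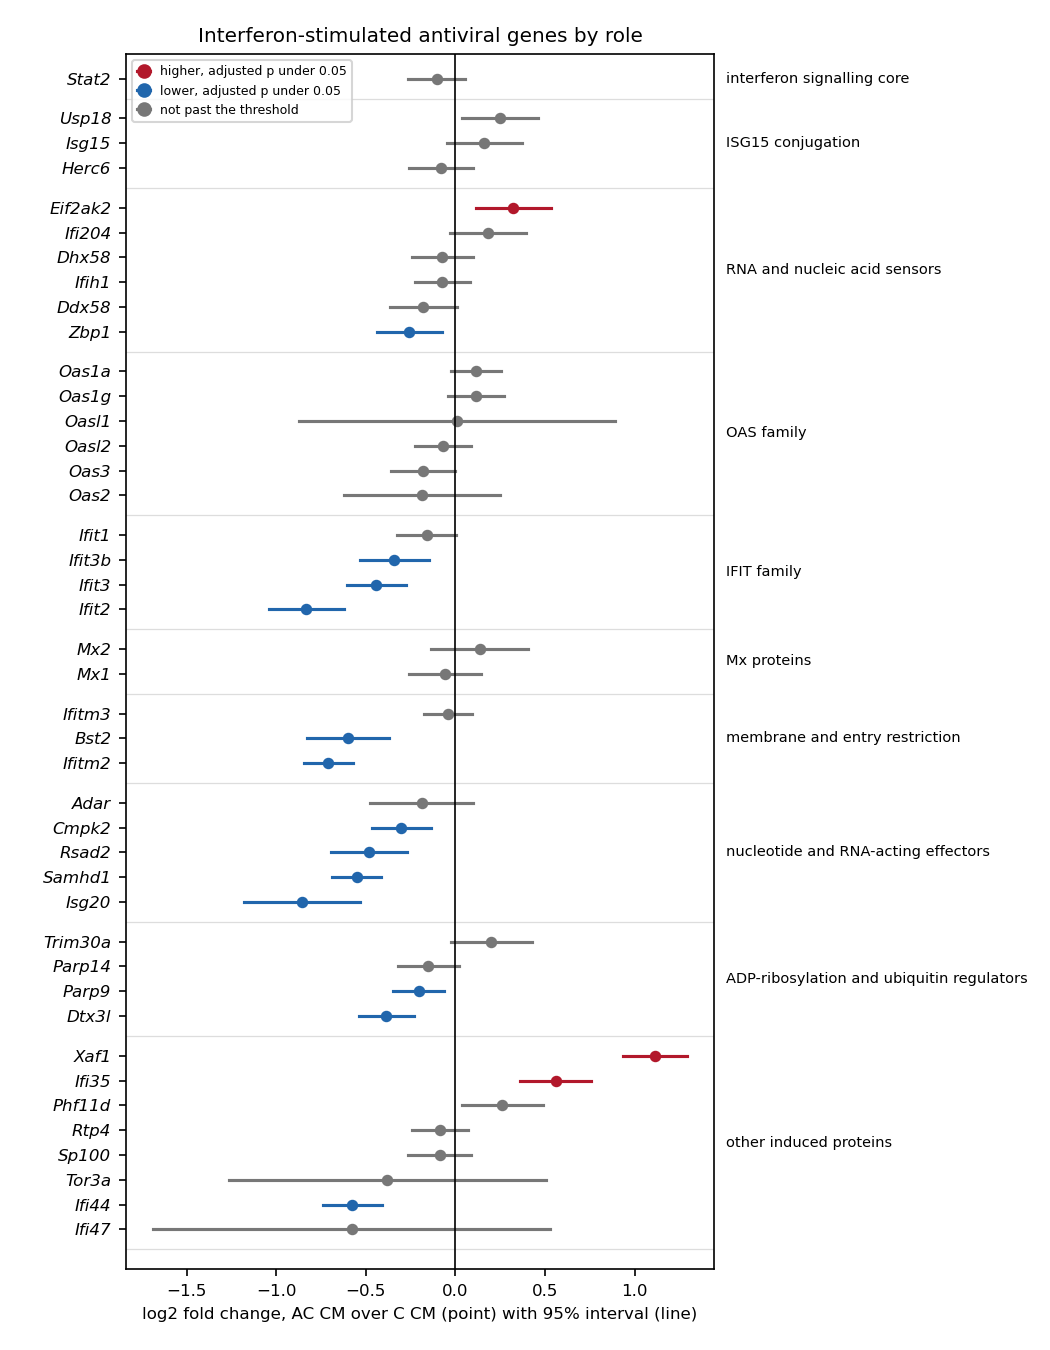
Log2 fold change (AC CM over C CM, point) with its 95% interval (line) for the 42 members by role, coloured by whether the adjusted p was under 0.05 and in which direction. The points of all members of the IFIT, membrane and nucleotide groups lie left of 0, with intervals that cross 0 for Ifit1, Ifitm3 and Adar. Ifi47, Tor3a and Oasl1 have the widest intervals. In a fit not drawn here, without AC CM replicates 2 and 3, Ifitm3 was at 0.0021.

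Among the regulators by ADP-ribosylation and ubiquitin, Dtx3l and Parp9, which form a complex, fell, and Parp14 and Trim30a did not pass. Dtx3l, the ubiquitin ligase of the complex, had 12922, 14568 and 15104 counts after AC CM, against 14782, 17374 and 16988 after C CM. It averaged 187 ± 3.22 CPM after AC CM, against 244 ± 16.4 CPM after C CM (log2 fold change -0.39, SE 0.07, adjusted p = 0.00321), with every AC CM sample below every C CM sample. Dtx3l lies at chr16:35926511-35939151, minus strand. Parp9, its ADP-ribosylating partner, had 8550, 9151 and 9402 counts after AC CM, against 8546, 9505 and 9549 after C CM. Its difference was small, though without overlap in CPM (119 ± 1.88 CPM after AC CM, against 137 ± 6.27 CPM after C CM; log2 fold change -0.20, SE 0.06, adjusted p = 0.0416). Parp9 lies at chr16:35938470-35972605, plus strand. The Parp9 call was lost without AC CM replicate 1, 2 or 3 or C CM replicate 2 or 3 (adjusted p = 0.0978, 0.138, 0.15, 0.0925 and 0.104). Dropping AC CM libraries 2 and 3 together ended both calls, with Dtx3l at -0.42 (adjusted p = 0.118) and Parp9 at -0.18 (adjusted p = 0.488). The genes lie on opposite strands and share 682 bases. Strand is not stated for the counting, so reads from there may belong to either gene. Parp14, a related ADP-ribosyltransferase and among the most counted members, had 37605, 40217 and 42840 counts after AC CM, against 34591, 41372 and 42554 after C CM. Its groups overlapped (log2 fold change -0.15, SE 0.08, adjusted p = 0.175). Without C CM replicate 1, Parp14 was called lower (log2 fold change -0.22, adjusted p = 0.00353). Trim30a, a mouse TRIM protein that restrains Toll-like receptor signalling, had 25123, 26489 and 29109 counts after AC CM, against 17050, 21963 and 23096 after C CM. In CPM its C CM replicate 3 overlapped the AC CM samples (log2 fold change 0.20, SE 0.10, adjusted p = 0.171), and its coding sequence is 90.2% identical to that of Trim30d.

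Beside Xaf1 and Ifi35, Ifi44 was the third called gene among the 8 other induced proteins, and it fell. Ifi44, an induced cytoplasmic protein, had 5132, 4951 and 5751 counts after AC CM, against 6648, 7082 and 7120 after C CM. It was 1.49-fold lower without overlap (69.7 ± 4.91 CPM after AC CM, against 104 ± 2.45 CPM after C CM; log2 fold change -0.57, SE 0.07, adjusted p = 0.000561). Ifi44 lies at chr3:151730922-151749960, minus strand. It missed the threshold once AC CM libraries 2 and 3 were both absent (log2 fold change -0.51, adjusted p = 0.0627). Phf11d, a PHD finger protein, had 6300, 6250 and 6919 counts after AC CM, against 4155, 4717 and 5508 after C CM. Its groups overlapped in CPM through C CM replicate 3 (log2 fold change 0.26, SE 0.10, adjusted p = 0.0879). Rtp4, which hinders flavivirus replication, and Sp100, a component of PML nuclear bodies, had log2 fold changes of -0.09 and -0.09 (95% intervals -0.24 to 0.07 and -0.26 to 0.09). Ifi47, an immunity-related GTPase, had 5281, 6049 and 2948 counts after AC CM, against 6306, 4095 and 8579 after C CM. Its samples scattered 2.12-fold within AC CM and 2.14-fold within C CM in CPM, more than the gap between the groups (log2 fold change -0.58, SE 0.42, adjusted p = 0.392; 95% interval -1.69 to 0.53). Olfr56, annotated on the same strand over 20388 bases of Ifi47, had counts equal to 5.56% of those of Ifi47. Tor3a, an ATPase of the endoplasmic reticulum, had 10144, 5927 and 6493 counts after AC CM, against 10645, 9481 and 6155 after C CM. AC CM replicate 1 and C CM replicates 1 and 2 were high and the other samples low, so the groups overlapped (log2 fold change -0.38, SE 0.34, adjusted p = 0.487). Within groups, the other 38 members ranged at most 1.28-fold in AC CM and 1.37-fold in C CM.

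**Figure D3:**
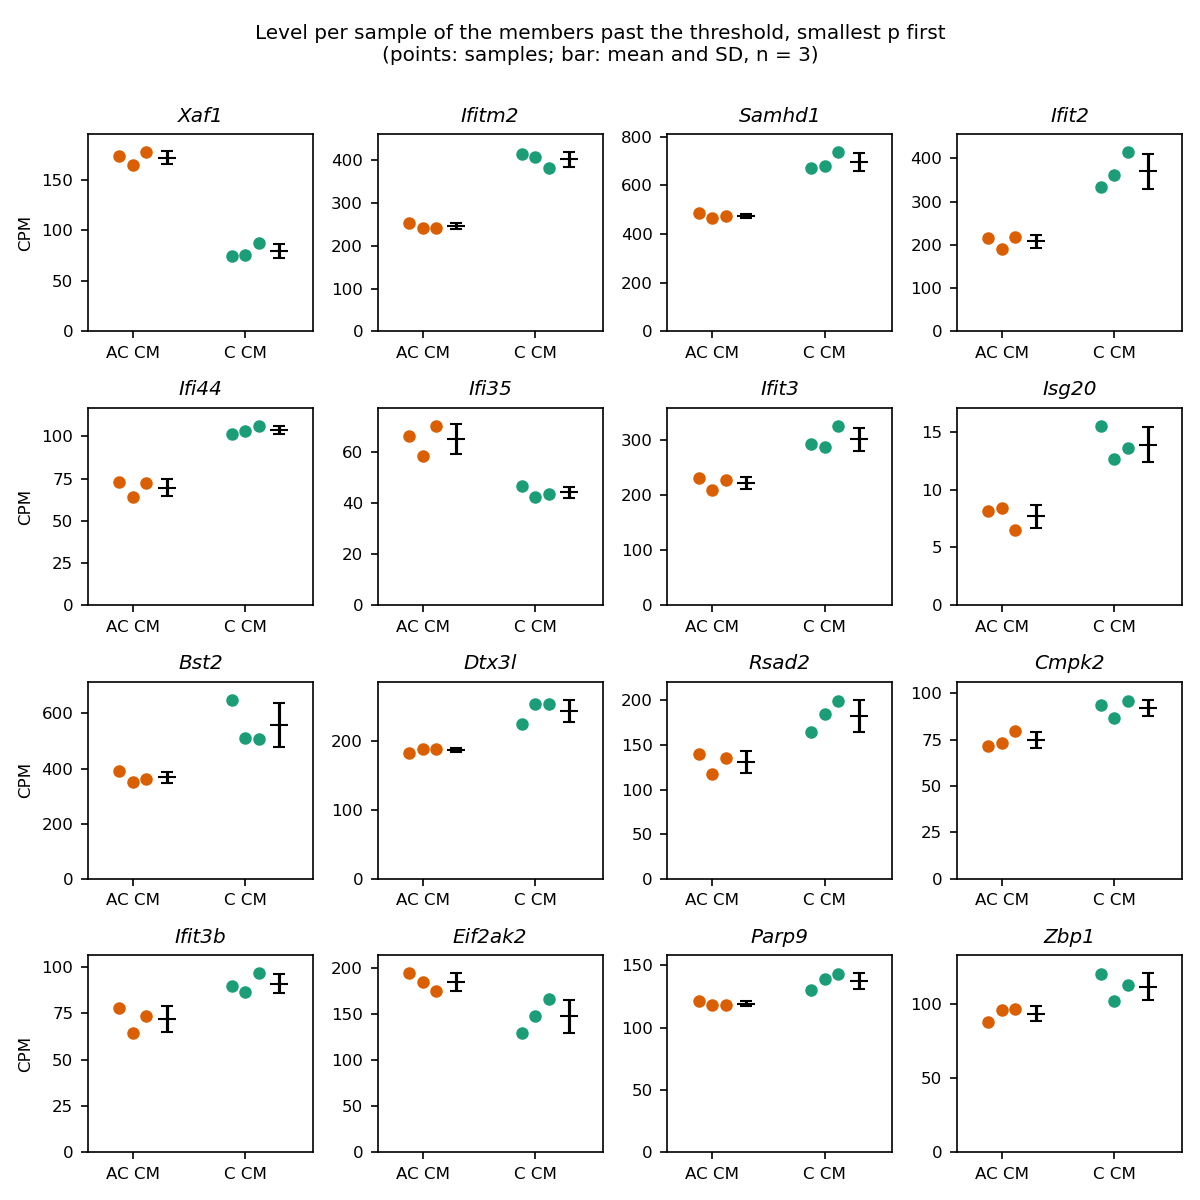
CPM per sample (points) with mean and SD (n = 3 samples a group) for the 16 members with an adjusted p under 0.05, AC CM left and C CM right, ordered by p; each axis starts at 0. Xaf1, Ifi35 and Eif2ak2 are higher after AC CM and the other 13 lower, with the narrowest gaps between groups in Eif2ak2, Parp9 and Zbp1.

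The calls rested unevenly on single libraries. Of the 16 called members, 11 were called without any single replicate, namely Xaf1, Ifitm2, Samhd1, Ifit2, Ifi44, Ifi35, Ifit3, Isg20, Bst2, Dtx3l and Rsad2. In those fits 18.5%, 17.5% and 17.1% of all genes were called without AC CM replicate 1, 2 or 3, and 27.0%, 20.8% and 22.1% without C CM replicate 1, 2 or 3. Some members gained a call there. Parp14 and Sp100 were called lower and Oas1a higher without C CM replicate 1 (adjusted p = 0.00353, 0.021 and 0.047). Phf11d was called higher without C CM replicate 3 (adjusted p = 0.0167). In 9 further fits, which changed the tool, scaling, filter or unit or added a replicate block, 13 of the 16 were called in every one, and Zbp1, Eif2ak2 and Parp9 were not: each missed the threshold with the block, and Zbp1 also with no filter. DESeq2 called 26.0% of all genes, limma-voom 27.0%, RLE scaling 26.5%, upper quartile scaling 26.3%, a fit without the 20 most counted genes 26.5%, no filter 16.2%, at least 1 CPM in 3 samples 33.7%, the block 24.6% and counts divided by 4 32.3%. Leaving out AC CM replicates 2 and 3 leaves 1 AC CM library, assumed to vary like the C CM libraries. Then all 16 had the same sign, and Xaf1, Ifitm2 and Ifit2 were called (log2 fold changes 1.12, -0.67 and -0.78), beside 6.59% of all genes, while the other 13 lost their call. In the authors' deposited table, 3 members were called higher and 12 lower at an adjusted p under 0.05, against 9.72% and 8.94% (18.7% in all) of the 27127 genes with a p there. These were the same members as here but for Parp9, at an adjusted p of 0.0502 in the authors' deposited table.

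The ligands of the pathway were hardly detected. Of 18 type I interferon genes, 15 were at 0 in every library. A count of 0 allows up to 3 counts, or 0.0376 to 0.0458 CPM, per library for counting error alone. This bound takes each count as a separate read, and the counting tool is not given. Ifnb1 had 12 counts in AC CM replicate 2 and 0 in every other library, and Ifnz, with up to 0.129 CPM after AC CM and 0.351 CPM after C CM, was the only gene tested (log2 fold change -2.30, SE 0.86, adjusted p = 0.0812). Among genes of the receptors and their transducers, Stat3 (log2 fold change -0.50), Tyk2 (-0.39) and Ifnar2 (-0.23) were lower and Ifnar1 (0.20) and Il10rb (0.30) higher. Irf9 (0.08) and Ifngr1 (0.11) did not pass. The calls of Ifnar1 and Ifnar2 were lost without AC CM replicate 1, 2 or 3, and that of Ifnar1 also without C CM replicate 2 or 3, with adjusted p up to 0.139 for Ifnar1 and 0.0831 for Ifnar2. In the fit without AC CM replicates 2 and 3, Stat3 was still called, and Tyk2, Ifnar2, Ifnar1 and Il10rb were not (adjusted p = 0.217, 0.33, 0.355 and 0.233).

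With all samples, 13.3% of all genes tested were called higher and 13.3% lower, the shares to set beside the lists below. Of 17 genes that sense nucleic acid upstream of interferon, 1 was higher, 7 were lower and 9 did not pass, with a median log2 fold change of -0.24. The smallest p in this list belonged to Tlr9 (log2 fold change -0.75), its chaperone Unc93b1 (-0.76), Tmem173 (STING, -0.69) and Irf8 (-0.46). Irf7, itself an interferon target, fell by 0.26 on the log2 scale (adjusted p = 0.0377). That call was lost without AC CM replicate 1, 2 or 3 or C CM replicate 2 (adjusted p up to 0.158). Of the 8 calls in the list, 4 held without AC CM replicates 2 and 3, those of Tlr9, Unc93b1 and Tmem173 among them, while Irf8 (adjusted p = 0.221) and Irf7 (adjusted p = 0.484) were not called. Of 12 restraints on the pathway, a list that holds Isg15 and Usp18, Socs3 (-0.87) and Ptpn1 (-0.50) fell and 10 did not pass, Socs1 among them (log2 fold change -1.0, SE 0.39, adjusted p = 0.101). Socs3 and Ptpn1 missed the threshold without AC CM replicates 2 and 3 (adjusted p = 0.0607 and 0.0645). The guanylate-binding proteins and immunity-related GTPases, best known as targets of interferon gamma, were lower in 14 of 16 tested genes (17 listed). Their median log2 fold change was -0.58, and Gbp7 (-1.18), Gbp3 (-1.03), Gbp4 (-2.02) and Gbp2 (-1.21) had the smallest p. These genes were among the 6 of the 14 still called without AC CM replicates 2 and 3. Set beside these, the antiviral members had 13 of 42 lower and a median of -0.13, and the difference between the lists was not tested. Among 68 other interferon-inducible genes tested, 11 were higher and 19 lower, and by p Apobec3 (-1.05), Slfn4 (1.81), Epsti1 (-0.63) and Trim34a (-0.74) came first. Without AC CM replicates 2 and 3, these genes and 4 more of the 30 held their call.

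**Figure D4:**
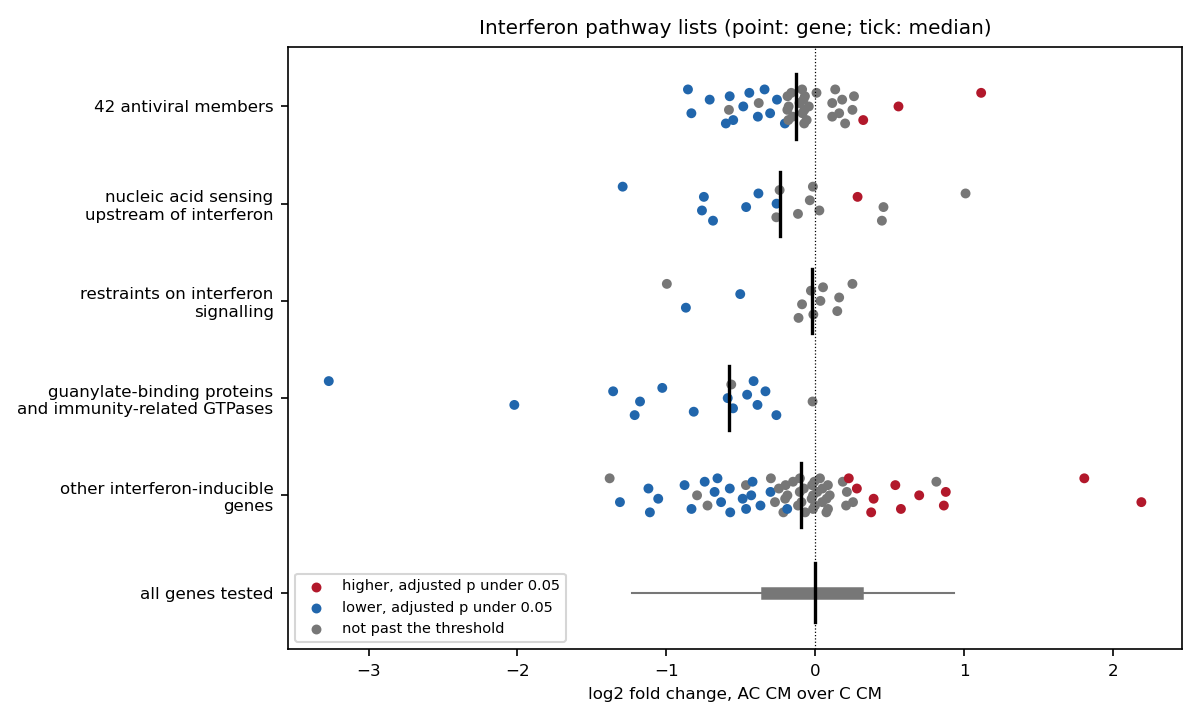
Log2 fold change (AC CM over C CM) of each tested gene (point, coloured by call) and the median (black tick) for the 42 members and 4 lists of pathway genes; for all 17863 genes the thick bar spans the 25th to 75th percentile and the thin line the 5th to 95th. Medians lie at -0.13 for the members and at -0.58 for the guanylate-binding proteins and immunity-related GTPases.

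Markers of other cells that a marrow culture can hold also moved with the groups. Beside the counts of markers below, 13.3% of all genes tested were called lower and 13.3% higher with all samples. Plasmacytoid dendritic cells, major producers of type I interferon, also carry Bst2, and of their markers 3 of 7 tested were lower and 4 did not pass, with summed levels of 56.9 to 99.2 CPM after AC CM and 115 to 126 CPM after C CM. The called markers, Siglech, Spib and Bcl11a, averaged 0.363, 0.363 and 0.338 CPM after AC CM, against 2.00, 3.64 and 1.81 CPM after C CM. Most of the summed level in both groups therefore came from markers that did not pass. Lower were 6 of 7 tested dendritic cell markers (14.5 to 16.3 CPM summed after AC CM, 54.6 to 68.5 after C CM), 5 of 6 monocyte markers (259.5 to 305 against 747 to 937), 7 of 8 neutrophil markers (169 to 186 against 824 to 957) and 6 of 6 tested lymphocyte markers (9.95 to 10.3 against 25.9 to 31.7). Macrophage markers were lower in 4 of 9, Csf1r among them (-0.72), and summed to 17445 to 18186 CPM after AC CM and 19809 to 21275 CPM after C CM. Chondrocyte markers summed to 108 to 110.3 CPM after AC CM and 70.8 to 82.8 CPM after C CM, with Col11a1 alone called, higher, of 5 tested. Without AC CM replicates 2 and 3, 2 of the 3 called markers of plasmacytoid dendritic cells, 5 of 6 of dendritic cells, 5 of 5 of monocytes, 7 of 7 of neutrophils, 3 of 6 of lymphocytes and 1 of 4 of macrophages were still called lower. The part of these cells in the levels of the antiviral genes was not tested.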

How the data were processed

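Macrophage mRNA libraries of 3 AC CM and 3 C CM samples, grouped by the treatment in their labels, were read from a table of the whole series. The submitters' processing notes name R 3.4.3, DESeq2 1.18.1, HISAT2 2.1.0 and fastp 0.17.1. The counting tool, its strand setting and the genome build are not given in those notes. The authors deposited raw whole-number counts for each gene, which were tested here. The deposited signal, which is counts divided by a factor per sample, was not used. The log2 fold changes and p-values that the authors deposited were read only where their table is named.

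The 42 members and all lists were chosen with earlier results of these data known. Every member is named; counts per sample are given for the called members, the 6 others with the largest log2 fold change and the 6 with the most counts, and from each pathway list up to 4 genes with the smallest p plus Ifnb1, Irf7, Irf9, Ifnar1, Ifnar2, Ifngr1 and Socs1; 1 further gene is not reported here. Genes passing filterByExpr (minimum count 10) were scaled by TMM and tested with edgeR 4.0.16 in R 4.3.3 (robust quasi-likelihood, group as the only term, Benjamini-Hochberg), and CPM use the scaled library sizes. On counts simulated with known changes, the genes called had the right sign, and the median error of the log2 fold change, over changes of both signs, was small. Changes as small as those of several called members, Parp9 and Zbp1 among them, were not simulated. Exon lengths and coding sequences came from GENCODE M21 (GRCm38), in which 39 members have the deposited coordinates and identifier. Identity was computed on coding sequence in place of protein, which was not used here. DESeq2 1.42.0, limma-voom (limma 3.58.1), other scalings and filters, a replicate block, left-out replicates and counts divided by 4 were alternatives. Tables used Python 3.11.15, pandas 2.3.3, Biopython 1.88 and matplotlib 3.10.9. Numbers of counts cover counting error only.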

Additional observations from a re-analysis of the deposited data

How the results depend on the processing

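Under DESeq2, limma-voom, RLE or upper quartile scaling, the 20 most counted genes left out, at least 1 CPM in 3 samples and counts divided by 4, 3 members were called higher and 13 lower, and with no filter on low counts 3 and 12, Zbp1 being lost. Leaving out each replicate gave 2 to 4 members higher and 9 to 14 lower, and 1511 to 2667 of all genes higher and 1647 to 2356 lower (17.1% to 27.0% called), against 2370 and 2371 with all samples. With AC CM replicates 2 and 3 left out, 1 member was higher and 2 were lower, and 510 of all genes were higher and 764 lower (6.59% called), with fewer samples in the fit. Samples with the same replicate number did not deviate alike (correlations of same-numbered deviations between -0.12 and -0.014), which cannot show whether they were prepared in pairs. The fit with the replicate block called 3 members higher and 11 lower, and 2216 of all genes higher and 2181 lower (24.6%), without Eif2ak2, Zbp1 and Parp9 and with Usp18. The narrower ISRE form stood in 32.3% of members with a window, against 51.6% for the wider form, which contains it.

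Signs turned for 6 members that did not pass the test, and the cause was not tested. With AC CM replicates 2 and 3 left out, Dhx58 was at 0.0052, Ifitm3 at 0.0021 and Tor3a at 0.13. Oasl1 was at -0.018 under upper quartile scaling and at -0.0011 with at least 1 CPM in 3 samples. Without each replicate in turn, Oasl1 ranged from -0.18 to 0.40, Oas2 from -0.33 to 0.066 and Mx1 from -0.097 to 0.025. All 16 called members kept their sign in all 16 settings. Counts per library limit the members little, and the replicate spread of Ifi47, Tor3a, Oas2 and Oasl1 limits those most.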
